A study of Mus musculus with 6 samples.

Results

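The genes of cholesterol and fatty acid synthesis were measured in newborn mouse lenses of the Gclc KO genotype and in those of the Gclc CON genotype. They are 28 named genes of the 27179 in the deposited table: 18 enzymes of the sterol pathway, 4 regulators and carriers of sterols, and 6 enzymes that make or modify fatty acids. All 28 were found in the table by their Entrez identifiers. The rule that lists them uses no measured value, though the members were chosen with earlier results of these data known. RNA came from lenses of B6/FVB mice on postnatal day 1, with 3 libraries of the Gclc KO genotype (KO 1 to 3) and 3 of the Gclc CON genotype (CON 1 to 3). The title of the series names glutathione synthesis, eye development and PAX6, a transcription factor of the eye. The labels name no Cre driver, no deleted exon, no sex and no litter, and they do not say how many animals gave a library or whether CON mice carry an allele or transgene of their own. P-values therefore measure the spread between these libraries, which may be in part technical.

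Gclc makes the catalytic part of glutamate-cysteine ligase, with which glutathione synthesis starts. It had 17.8, 72.1 and 58.1 normalised reads in the KO libraries, against 178, 283 and 173 in the CON libraries, and the groups did not overlap (log2 difference -1.01, SE 0.28, limma adjusted p = 0.0387). The call was lost without CON 2 or any KO library (adjusted p up to 0.130). A voom fit of the recovered reads gave an adjusted p of 0.0609. Values are given in the order of libraries 1, 2 and 3 of each group. Normalised reads are reads divided by a size factor per library, and a log2 difference is KO minus CON on the variance-stabilised log2 scale of the deposited values, which draws in the differences of genes with few reads. KO libraries held 45842484 to 61219009 reads in genes and CON libraries 20361430 to 43384443, with the fewest in CON 2. It is the only library whose lane suffix in the column headers differs from the rest. The 16 crystallin genes took 40.5% to 47.5% of the reads in KO lenses and 59.5% to 68.4% in CON lenses. Of 10 markers of lens fibre cells, 9 fell in KO lenses and none rose, and they summed to 2795055 to 4544547 normalised reads in KO lenses and 7326683 to 12129062 in CON lenses. These markers include the crystallin genes Crygs and Cryba1, so their sum overlaps with the crystallin reads. Of 5 tested markers of the lens epithelium 2 rose and 3 fell. Fibre markers were thus abundant in both groups. Fewer cells of a type and less RNA per cell cannot be told apart in RNA from whole lenses.

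Cholesterol is built from acetyl-CoA by a chain of enzymes that passes through mevalonate, farnesyl diphosphate, squalene and lanosterol. Its genes are transcribed together when sterols run low: the membrane-bound factor SREBP2, made from Srebf2, is then carried from the endoplasmic reticulum to the Golgi, cut free and sent to the nucleus, and INSIG proteins hold it back when sterols are plentiful. SREBP1, made from Srebf1, acts mainly on fatty acid genes. Lens fibre membranes are very rich in cholesterol, and inherited defects of lanosterol synthase cause cataract in humans and rats.

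Promoters are shown for Msmo1, the sterol enzyme with the largest difference between the groups, and for Hmgcs1 and Mvk, the members with the sterol response element and with the most CCAAT boxes, since SREBP2 acts at sterol genes together with the CCAAT-binding factor NF-Y. RefSeq windows of 250 bases before the gene start (GRCm38.p6) matched 22 of the 28 members, and they are given 5′ to 3′ on the strand of the gene. Sqle, Scd1, Fdps, Fdft1, Stard4 and Scd2 had no window, so the motif counts do not cover them. Of 27 windows of members, 21 led into the start of an annotated transcript. Capitals mark CCAAT boxes (CCAAT, or ATTGG where the box lies on the opposite strand) and, in Hmgcs1, the response element TCACNCCAC. The windows are chr8:64733579-64733828 on the minus strand for Msmo1, chr13:119690101-119690350 on the plus strand for Hmgcs1 and chr5:114444019-114444268 on the plus strand for Mvk.
Msmo1: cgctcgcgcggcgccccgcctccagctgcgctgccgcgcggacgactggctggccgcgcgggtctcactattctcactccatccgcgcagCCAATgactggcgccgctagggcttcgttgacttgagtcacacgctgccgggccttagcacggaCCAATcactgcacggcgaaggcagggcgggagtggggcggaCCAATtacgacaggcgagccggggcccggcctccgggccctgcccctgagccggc
Hmgcs1: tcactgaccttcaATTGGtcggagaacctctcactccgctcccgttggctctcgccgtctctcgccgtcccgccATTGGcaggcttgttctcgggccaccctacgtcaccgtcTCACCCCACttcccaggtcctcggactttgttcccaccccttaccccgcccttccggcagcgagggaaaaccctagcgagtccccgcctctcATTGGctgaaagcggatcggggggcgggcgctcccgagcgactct
Mvk: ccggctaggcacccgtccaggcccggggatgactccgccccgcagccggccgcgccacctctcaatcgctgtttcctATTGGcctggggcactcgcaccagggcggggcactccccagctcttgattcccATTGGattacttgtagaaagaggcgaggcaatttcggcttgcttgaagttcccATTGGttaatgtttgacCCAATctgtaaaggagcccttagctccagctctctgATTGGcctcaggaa
Msmo1 holds 3 CCAAT boxes, at 160, 96 and 55 bases before the start, Hmgcs1 holds 3, the nearest at 45, with its response element at 137, and Mvk holds 5 within 173 bases. Searched on both strands, a CCAAT box was found in 18 of the 22 members (81.8%), against 41.2% of the genes tested and 37.5% of all genes with a window. A gene with several starts counts where any of its windows holds the motif. A pair of boxes or more was found in 10 of 22 (45.5%), against 15.4%. TCACNCCAC was found in Hmgcs1 alone of the 22 (4.5%), against 1.27% of genes tested and 1.22% of all genes, and it overlapped no box there. A match of letters is a description of the window and does not show that a factor binds there.

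Few of these genes passed the test in KO lenses. Squalene epoxidase (Sqle), methylsterol monooxygenase (Msmo1) and the fatty acid desaturase Scd1 rose, and no member fell past the test. All 28 members had enough reads to be tested, so 3 of 28 were called (10.7%) at an adjusted p under 0.05, against 11.3% of the 11468 genes tested. Among all genes, 793 were called higher (6.91%) and 504 lower (4.39%), a split that turned to 643 higher and 717 lower with equal library medians and to 3314 higher and 85 lower with total reads as library size. The share of members called was thus near that of genes at large. The median difference of the members was 0.09, beside 0.03 over all genes tested, and 17 members were positive and 11 negative. Every KO library lay above every CON library in 6 members, and every KO library lay below every CON library in 4. Over all genes tested these arrangements were found in 16.9% and 14.1%. In the same libraries 10 of 14 tested macrophage markers rose and none fell, with a summed level of 6317 to 19066 normalised reads in KO lenses and 1495 to 2777 in CON lenses. Their part in the values below was not tested.

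**Figure D1:**
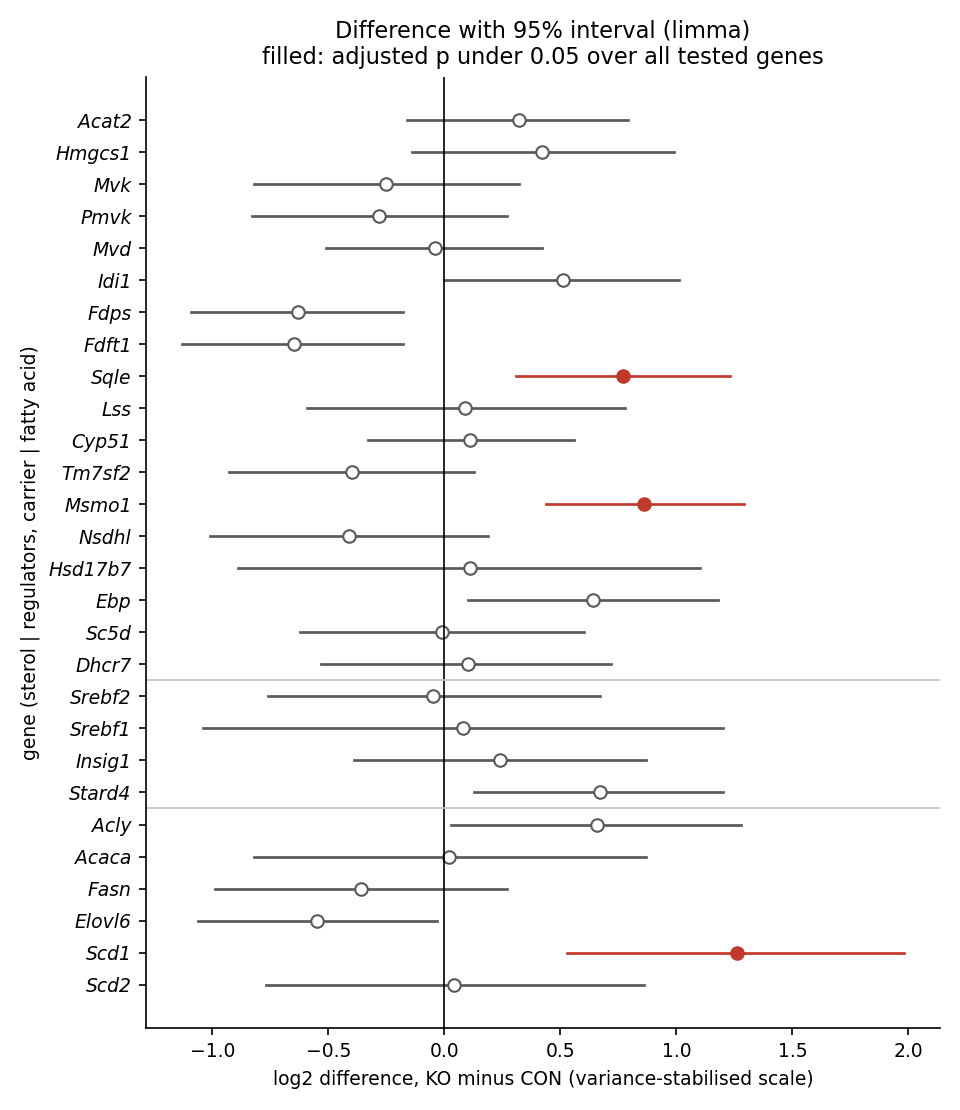
Log2 difference, KO minus CON, of each of the 28 genes in pathway order, with points for the estimate and lines for the 95% confidence interval of the limma fit. Sqle, Msmo1 and Scd1 are the members past the threshold, and the estimates of the sterol enzymes run from -0.65 to 0.86.

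The plot of differences by gene shows members on both sides of 0 in each branch. The 18 sterol enzymes summed to 36108 ± 1263 normalised reads in KO lenses and 34232 ± 4807 in CON lenses (SD, n = 3 each), with overlapping libraries. That overlap depended on the scaling. As a share of non-crystallin reads, and as a share of total reads, their sum was higher in every KO library than in every CON library. In voom fits with these scalings the median difference of all genes was also positive, at 0.23 and 0.86. Of these 18 enzymes 2 rose, none fell and 16 did not pass. Without adjustment, 4 were higher and 2 lower at a p under 0.05. Of all 11468 genes tested, 3024 were past that p in either direction.

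The chain opens with the joining of acetyl-CoA units by the cytosolic thiolase Acat2 and the HMG-CoA synthase Hmgcs1. Acat2 averaged 1758 ± 253 normalised reads in KO lenses and 1380 ± 224 in CON lenses (log2 difference 0.32, SE 0.22), and Hmgcs1 averaged 5918 ± 660 in KO lenses and 4541 ± 1507 in CON lenses (0.42, SE 0.26). Both overlapped between groups, and CON 2 was the lowest library for both, with 2801 normalised reads of Hmgcs1. The kinases Mvk and Pmvk and the decarboxylase Mvd, which turn mevalonate into the activated isoprene unit, had differences of -0.25, -0.28 and -0.04, with 95% intervals that lay between -0.83 and 0.42. Mvk, with the most CCAAT boxes of the printed promoters, averaged 420 ± 129 normalised reads in KO lenses and 518 ± 87.4 in CON lenses. All 3 genes overlapped between groups. Transcripts of Acat2 share 45.9% of their 50-base stretches with other genes, chiefly Acat3, so its reads could have been split between genes.

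Idi1, the isomerase that supplies the building blocks for longer chains, had 1400.1, 1455 and 1205 normalised reads in the KO libraries, against 894, 699 and 1149 in the CON libraries. The KO values all lay above the CON values, KO 3 and CON 3 being close. The log2 difference was 0.51 (SE 0.23, 95% interval 0.00 to 1.01, adjusted p = 0.186) and did not pass.

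Fdps joins these blocks into farnesyl diphosphate, from which both sterols and the lipid anchors of proteins are made. It had 3444, 2865 and 2960 normalised reads in the KO libraries, against 3926, 5319 and 5540.0 in the CON libraries. Fdft1, squalene synthase, commits farnesyl diphosphate to sterols, and had 2691, 3016 and 3493 in the KO libraries, against 4274, 4378 and 6247 in the CON libraries. In both genes every KO library lay below every CON library. The differences were -0.63 (SE 0.21, adjusted p = 0.0730) for Fdps and -0.65 (SE 0.22, adjusted p = 0.0769) for Fdft1, just short of the threshold. Without CON 1 both passed, at -0.78 (adjusted p = 0.0173) and -0.75 (adjusted p = 0.0394), and they also passed with a transcript length trend removed, at adjusted p = 0.0314 and 0.0321. With total reads as library size both differences were positive, 0.19 and 0.13, in a fit where the median of all genes was 0.86. Fdps shares 86.4% of its 50-base stretches with other annotated transcripts, mostly of a locus that overlaps it, and Fdft1 overlaps Ctsb on the opposite strand. The locus at Fdps lies on the same strand, so no strand setting could separate their reads. For Fdft1, the strand used in counting is not given in the sources used here. Reads of these neighbours may thus be among those of Fdps and Fdft1.

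Sqle, which adds oxygen to squalene and is a main control point of the pathway, rose. It had 4369, 5745 and 6504 normalised reads in the KO libraries, against 3276, 3320.2 and 2820.2 in the CON libraries. The lowest KO library, KO 1, still lay above the highest CON library. Sqle averaged 5539 ± 1082 in KO lenses and 3139 ± 277 in CON lenses (SD, n = 3 each), a ratio of 1.77, and rose by 0.77 on the log2 scale (SE 0.21, 95% interval 0.31 to 1.23, adjusted p = 0.0363). The call was lost without KO 2, KO 3, CON 2 or CON 3 (adjusted p up to 0.200, differences 0.65 to 0.81), at equal library medians (adjusted p = 0.0864) and without the mean-variance trend (adjusted p = 0.0658). No 50-base stretch of Sqle is shared with another gene. Lss, which folds the product of Sqle into lanosterol, had 519, 785 and 854 normalised reads in the KO libraries, against 1153, 450.0 and 513 in the CON libraries, and overlapped (0.09, SE 0.31).

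**Figure D2:**
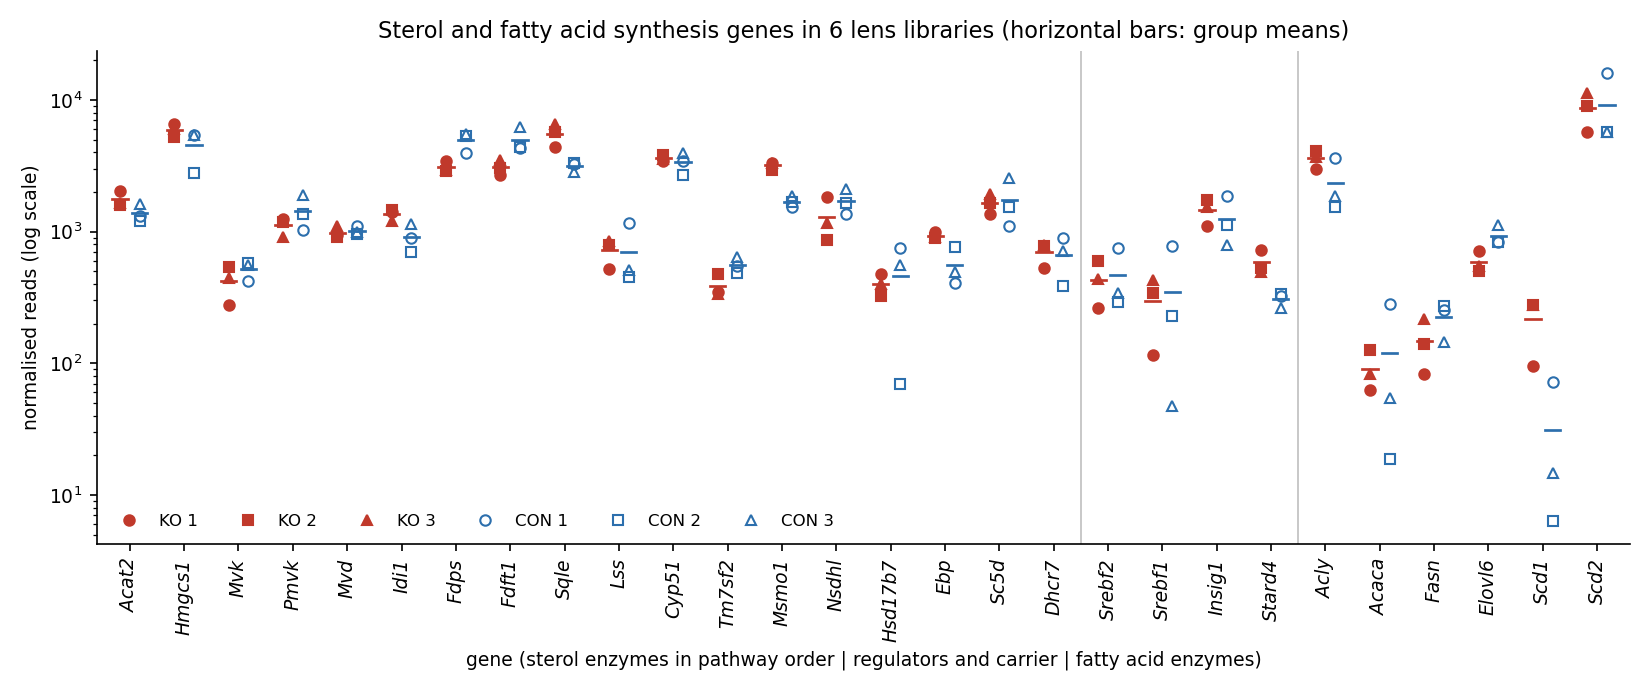
Normalised reads of the 28 genes in each library on a log axis, with points for single libraries and bars for the group mean, KO left of CON within each gene. Sqle, Msmo1, Idi1, Ebp, Stard4 and Scd1 have all KO points above all CON points, and Fdps, Fdft1, Tm7sf2 and Elovl6 have them all below.

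Between lanosterol and cholesterol, Msmo1 was the enzyme that passed the test, and the plot of normalised reads by library shows its groups apart. Msmo1 is an oxidase that acts in the removal of methyl groups from the sterol ring. It had 3332, 2938 and 3333 normalised reads in the KO libraries, against 1529, 1671 and 1847 in the CON libraries. The lowest KO library, KO 2, lay well above the highest CON library, CON 3. Its mean was 3201 ± 228 in KO lenses and 1682 ± 159 in CON lenses (SD, n = 3 each), a ratio of 1.90, and it rose by 0.86 on the log2 scale (SE 0.20, 95% interval 0.44 to 1.29, adjusted p = 0.0156). Leaving out any KO library ended the call (adjusted p up to 0.0919), while the difference stayed between 0.80 and 0.93 in all 6 fits with a library left out.

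The enzymes that act beside Msmo1 on the same methyl groups, Nsdhl and Hsd17b7, did not pass. Nsdhl had 1842, 856 and 1163 normalised reads in the KO libraries, against 1371, 1652 and 2111 in the CON libraries (-0.41, SE 0.27, adjusted p = 0.381). Hsd17b7 spanned 323 to 476 in KO lenses and 69.2 to 749 in CON lenses, where CON 2 held 22 reads of it. The demethylase Cyp51 was nearly level, with 3609 ± 206 in KO lenses and 3353 ± 618 in CON lenses (0.11, SE 0.21). Tm7sf2, a sterol reductase, had 347, 476 and 337 in the KO libraries, against 550.0, 482 and 640.1 in the CON libraries, with all KO values below all CON values by a narrow margin (-0.40, SE 0.24, adjusted p = 0.324).

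Ebp, the isomerase that moves a bond within the sterol ring, had 993, 895 and 906 normalised reads in the KO libraries, against 406, 758 and 497 in the CON libraries. All KO libraries lay above the CON libraries, but the spread within CON was wide and the gene did not pass (0.64, SE 0.25, adjusted p = 0.120). Sc5d and Dhcr7, which act at the end of the pathway, overlapped between groups, with differences of -0.01 (SE 0.28) and 0.10 (SE 0.29). Their 95% intervals were -0.62 to 0.60 and -0.53 to 0.72.

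Ratios of reads within a library do not depend on how libraries were scaled. These ratios were chosen after the values were seen and are a description, since 3 libraries against 3 cannot give an exact two-sided p below 0.10. Sqle had 1.62, 1.90 and 1.86 reads per read of Fdft1 in the KO libraries, against 0.766, 0.758 and 0.452 in the CON libraries. Msmo1 had 1.24, 0.974 and 0.954 per read of Fdft1 in the KO libraries, against 0.358, 0.382 and 0.296 in the CON libraries. Reads of Fdft1, not corrected for length, thus outnumbered those of Sqle in all 3 CON libraries and in no KO library. Idi1 per read of Fdps was 0.407, 0.508 and 0.407 in the KO libraries, against 0.228, 0.131 and 0.207 in the CON libraries. That these ratios do not overlap follows from the choice of genes. In KO libraries each numerator lay above all its CON values and each denominator below all of them.

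**Figure D3:**
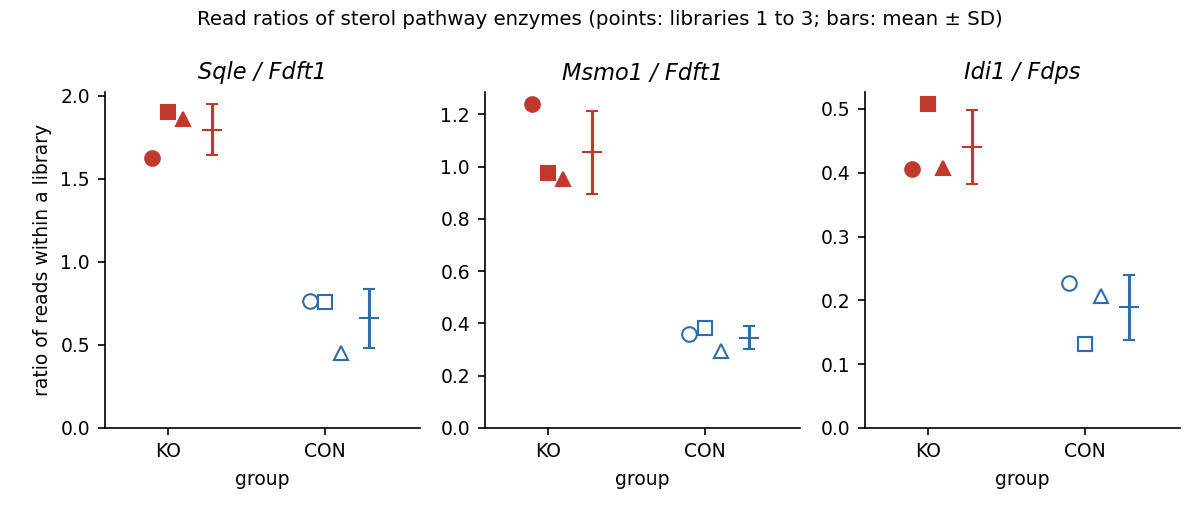
Reads of Sqle and Msmo1 per read of Fdft1, and of Idi1 per read of Fdps, in each library on a linear axis, with KO left of CON. The Sqle to Fdft1 ratio averages 1.80 ± 0.15 in KO lenses and 0.659 ± 0.18 in CON lenses. The lack of overlap between the groups follows from the choice of genes.

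The plot of ratios shows those of Sqle, Msmo1 and Idi1 and leaves out Hmgcs1 per read of Fdps. That ratio was 1.90, 1.82 and 2.03 in the KO libraries, against 1.37, 0.527 and 0.981 in the CON libraries. Divided by transcript length, the levels of the enzymes took a somewhat different order in the groups. In KO lenses Fdps led with 2236 normalised reads per kb, before Sqle (2008), Hmgcs1 (1709), Scd2 (1582) and Msmo1 (1566). In CON lenses Fdps led with 3566 per kb, before Scd2 (1673), Fdft1 (1343), Hmgcs1 (1311), Pmvk (1191) and Sqle (1138).

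None of the 4 regulators and carriers passed the test. With limma 1 of them was past an unadjusted p of 0.05, as were 3024 of the 11468 genes tested. Voom on recovered reads called none of the 4. Srebf2 had 263, 593 and 436 normalised reads in the KO libraries, against 756, 293 and 344 in the CON libraries (-0.05, SE 0.33, 95% interval -0.76 to 0.67). Srebf1 had 115, 340.3 and 429 in the KO libraries, against 776, 227 and 47.2 in the CON libraries, a span of 16.4-fold within CON (0.08, SE 0.51, 95% interval -1.04 to 1.20). CON 1 was the highest of all 6 libraries for both factors, and differences within these intervals were not detectable at this spread. Insig1, the sterol-sensing brake and itself a target of SREBP2, had 1105, 1735 and 1532 in the KO libraries, against 1851, 1127 and 791 in the CON libraries, and overlapped (0.24, SE 0.29).

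Stard4, which carries cholesterol between membranes and is also a target of SREBP2, had 729, 532 and 492 normalised reads in the KO libraries, against 323, 337 and 264.0 in the CON libraries. The groups were apart, with a mean of 584 ± 127 in KO lenses and 308 ± 38.6 in CON lenses, but the difference of 0.67 (SE 0.24) did not pass (adjusted p = 0.104).

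The fatty acid branch was mixed too. Of its 6 genes 1 rose, none fell and 5 did not pass, with a median difference of 0.03, and their sum was 13260 ± 3272 normalised reads in KO lenses and 12779 ± 7156 in CON lenses. Acly, which makes cytosolic acetyl-CoA from citrate for both branches, had 2995, 4083 and 3698 in the KO libraries, against 3637, 1536 and 1870.3 in the CON libraries. CON 1 lay among the KO values, and the difference of 0.66 (SE 0.29) did not pass (adjusted p = 0.170). Without CON 1 it did, at 1.00 (adjusted p = 0.0119).

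Acaca and Fasn, the carboxylase and the synthase that build the saturated chain, were low in both groups. Acaca had 62.8, 126 and 83.5 normalised reads in the KO libraries, against 284, 18.9 and 54.6 in the CON libraries, where CON 2 held 6 reads. Fasn had 82.4, 141 and 218 in the KO libraries, against 252, 271 and 146 in the CON libraries (-0.36, SE 0.29, adjusted p = 0.463). Per kb they reached 9.5 and 14.6 in KO lenses and 12.5 and 22.2 in CON lenses, far under the 812 and 530 of Acly. Both genes overlapped between groups. Acaca shares 52.6% of its 50-base stretches with another annotated gene.

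Elovl6, which lengthens saturated chains, had 708, 504 and 547 normalised reads in the KO libraries, against 836, 834 and 1122 in the CON libraries. All KO values lay below all CON values, and the difference of -0.55 (SE 0.23) did not pass (adjusted p = 0.163).

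Scd1 and Scd2 put the bond into saturated fatty acids that makes them monounsaturated. Scd1 had 95.03, 277 and 276 normalised reads in the KO libraries, against 71.8, 6.29 and 14.8 in the CON libraries, which are 165, 460 and 523 reads in KO lenses and 68, 2 and 10 in CON lenses. KO 1 lay only just above CON 1. Scd1 rose by 1.26 on the log2 scale (SE 0.33, 95% interval 0.53 to 1.98, adjusted p = 0.0328), with a mean of 216 ± 105 in KO lenses and 30.9 ± 35.6 in CON lenses. It was the only member that passed the filter on low values through the KO group alone, so a gene at this level had to be higher in KO lenses to be tested. The call was lost without KO 2, KO 3, CON 2 or CON 3 (adjusted p up to 0.153), and also without the filter, with quantile normalisation, with voom on recovered reads at any of 3 scalings and on log2 of normalised reads plus 1 or 5 (adjusted p = 0.0509 to 0.280). Of 4 adipocyte markers none was tested and Plin1 was at 0 in all libraries, with a sum of 1.1 to 58.7 normalised reads in KO lenses and 0 to 11.8 in CON lenses, and the part of such cells in Scd1 was not tested.

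Scd2 was the more abundant of the pair, at 1582 normalised reads per kb in KO lenses and 1673 in CON lenses, against 44.7 and 6.4 for Scd1. It had 5699, 8991 and 11192 normalised reads in the KO libraries, against 15955, 5699 and 5727 in the CON libraries. CON 1 stood apart from the other CON libraries, and the groups overlapped (0.04, SE 0.37, 95% interval -0.77 to 0.86). There were 0.0167, 0.0308 and 0.0247 reads of Scd1 per read of Scd2 in the KO libraries, against 0.0045, 0.0011 and 0.0026 in the CON libraries.

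CON 1 was high for many long members, among them Srebf1, Srebf2, Scd2, Acaca and Acly. Of the 12 members with transcripts over 4 kb, CON 1 was the highest CON library in 8, at a median of 0.66 log2 units above the CON mean, and KO 1 was the lowest KO library in 9. Of the 16 shorter members CON 1 was highest in 3, at a median of -0.03. By list, CON 1 lay at a median of 0.60 in the fatty acid genes, 0.60 in the regulators and carriers and -0.03 in the sterol enzymes. The parts of length and of branch were not tested apart. A smaller tilt in the same direction ran through all genes tested. There CON 1 lay 0.178 above the CON mean for genes of 4071 or more bases and at -0.178 for genes of up to 2312 bases. The median KO minus CON difference was 0.126 in the long genes and -0.104 in the short ones.

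**Figure D4:**
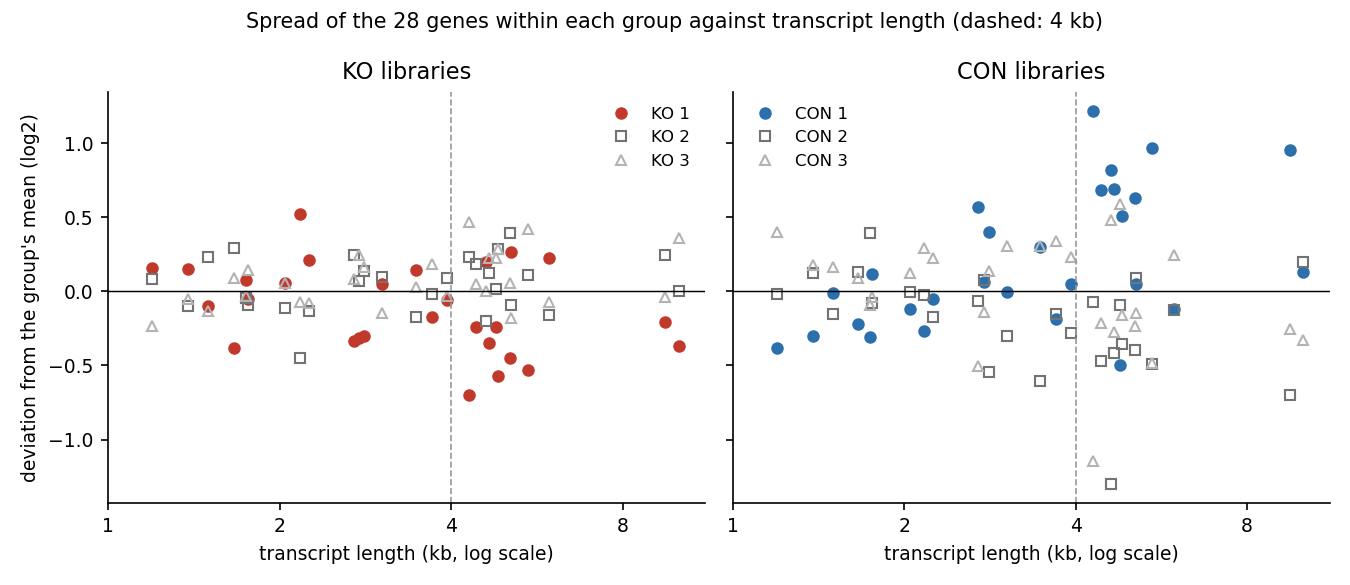
Deviation of each library from its group mean, in log2 units, against transcript length on a log axis, with a panel per group and a point per member and library. In CON 1 the members over 4 kb sit at a median of 0.66 and the shorter ones at -0.03.

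With a length trend removed from each library, chosen after the values were seen, Sqle, Msmo1 and Scd1 were still called, and Fdps and Fdft1 were called lower. The plot of library deviation against length also shows KO 1 at a median of -0.29 for members over 4 kb. Other processings moved the members as follows. Msmo1 was called in 15 of 19 alternatives, with differences of 0.74 to 1.76, and Sqle in 12 of 19, with differences of 0.65 to 1.64. Scd1 was called in 7 of the 18 that tested it, with differences of 0.98 to 3.74. Fdps and Fdft1 were called lower in 3 of 19 each. All 3 called members were positive in every alternative that tested them.

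**Figure D5:**
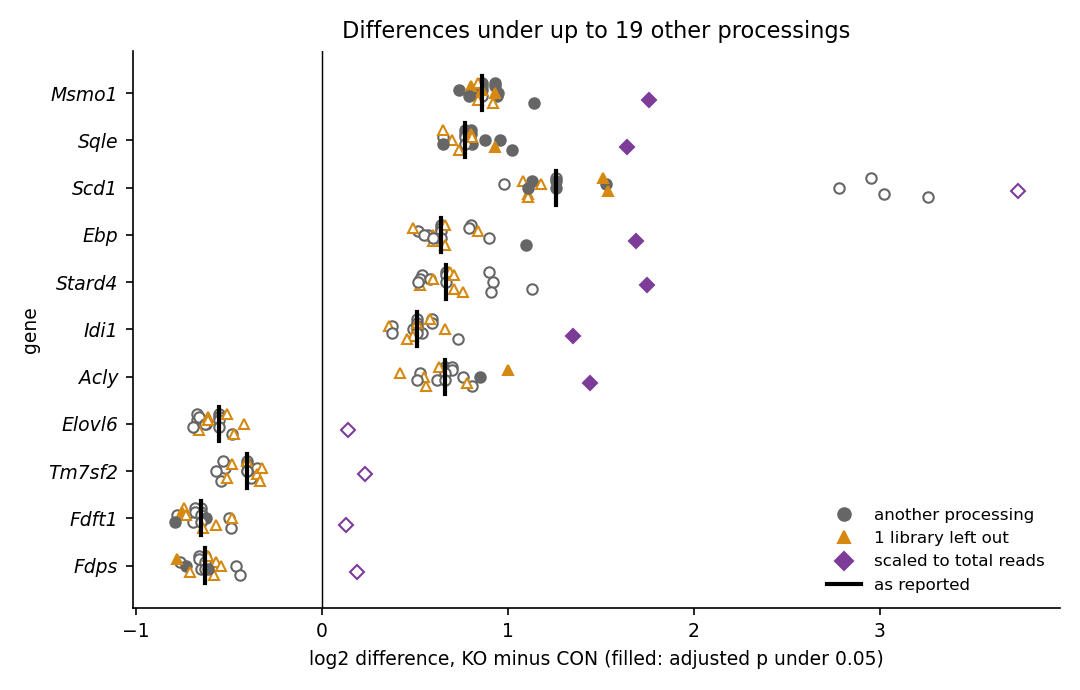
Log2 difference, KO minus CON, of 11 members (those called or without overlap between groups, and Acly) in the reported fit and under up to 19 other processings, filled where the gene was called. Msmo1, Sqle and Scd1 stay right of 0 throughout, and Fdps and Fdft1 cross 0 with total reads as library size. The axis pools fits on the variance-stabilised scale and on plain log2 scales, which give larger differences for genes with few reads.

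Related genes outside the 28 put these values in context, listed by function with earlier results of these data known. None of 8 other genes of sterol and isoprenoid synthesis was called by limma or by voom, none was past an unadjusted p of 0.05, and their median difference was 0.08. The same counts held for 10 genes that cut, carry or degrade the SREBP and INSIG proteins, whose median was 0.21. Of all 11468 genes tested, 3024 were past that unadjusted p. Of 13 tested genes of sterol uptake and trafficking 1 rose and none fell. That gene was Soat1, which esterifies cholesterol for storage, at 1301 ± 89.4 normalised reads in KO lenses and 390.1 ± 162 in CON lenses (1.46, SE 0.27, adjusted p = 0.00629).

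The next list held the oxysterol receptor LXR, targets of it, and genes of sterol efflux and of oxysterol and cholesterol ester turnover. Of its 10 tested genes 3 rose and none fell, with a median difference of 0.63, while voom on recovered reads called 1. Abca1, Abcg1 and Mylip were among the 7 that did not pass (differences 0.18, 0.45 and 0.65). Apoe, the lipid-carrying apolipoprotein, averaged 25228 ± 3665 in KO lenses and 9427 ± 651 in CON lenses (1.40, SE 0.20, adjusted p = 0.00140). Ch25h, the hydroxylase that makes an oxysterol from cholesterol, had 733, 183 and 200.3 normalised reads in the KO libraries and no reads in the CON libraries, which is at least 241-fold higher in KO lenses against a floor of 3 reads over the CON libraries together (adjusted p = 0.00208). Without KO 1 the bound was 124-fold. Like Scd1, it passed the filter on low values through the KO group alone, and voom did not call it (adjusted p = 0.0937). Nceh1, which frees cholesterol from its esters, rose by 1.00 (SE 0.26, adjusted p = 0.0319), a call lost without CON 2 or any KO library, without the filter, at equal library medians, with quantile normalisation, with the length trend removed and with voom scaled by size factors or non-crystallin reads (adjusted p = 0.0556 to 0.0877 over these other fits). KO 1 held the most Ch25h and Apoe and also the highest macrophage sum, 19066 normalised reads, against 10322 in KO 2 and 6317 in KO 3. Of the KO libraries it held the least Soat1, with 1211 normalised reads, against 1390 in KO 2 and 1303 in KO 3. The part of macrophages in Ch25h, Soat1 and Apoe was not tested.

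Of 24 other tested genes of fatty acid synthesis, chain lengthening and activation, 6 rose and 2 fell, with a median difference of 0.47. Elovl7, among the 6, passed the filter on low values through the KO group alone, with 71, 2 and 18 reads in the CON libraries. Acsl4, which activates long polyunsaturated fatty acids, averaged 748 ± 172 in KO lenses and 166 ± 62.1 in CON lenses (1.52, SE 0.27, adjusted p = 0.00511). Enzymes of the chain-lengthening cycle were called in both directions. Hsd17b12, its ketoreductase, rose to 6512 ± 832 in KO lenses, against 3315 ± 290 in CON lenses (0.93, adjusted p = 0.0106), and the dehydratase Hacd3 rose to 3652 ± 172, against 2046 ± 47.1 in CON lenses (0.78, adjusted p = 0.0205). The dehydratase Hacd2 fell to 344 ± 48.6 in KO lenses, against 984 ± 239 in CON lenses (-1.17, adjusted p = 0.0108), and Tecr, the reductase that closes the cycle, fell to 11459 ± 2666, against 21052 ± 4063 in CON lenses (-0.87, adjusted p = 0.0338). Acsl5, another activating enzyme, rose by 1.45 (SE 0.34, adjusted p = 0.0182). Among the genes given here with a difference, leaving out a single library ended each call but that of Acsl4. That library was KO 3 for Hsd17b12 and Hacd2, and KO 1, KO 2 or CON 2 for Acsl5. For Hacd3 it was any KO library or CON 2, and for Tecr KO 2, KO 3, CON 2 or CON 3. With total reads as library size the difference was -0.02 for Tecr and -0.69 for Hacd2 (adjusted p = 0.898 and 0.173). The call of Tecr was also lost without the filter, with non-crystallin reads and without the mean-variance trend (adjusted p = 0.0530 to 0.0604), and that of Hacd3 at equal library medians (adjusted p = 0.0629). Soat1, Apoe and Ch25h kept their calls in all 6 such fits.

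Of 18 tested genes of fatty acid oxidation 1 rose and 2 fell, with a median difference of 0.13. Acads, the dehydrogenase for short chains, rose by 0.93 (SE 0.25, adjusted p = 0.0345). Cpt2, which loads fatty acids inside the mitochondrion, had a difference of -0.83 (SE 0.20, adjusted p = 0.0193), and the electron carrier subunit Etfb one of -1.01 (SE 0.26, adjusted p = 0.0290). Acads lost its call when any library other than CON 1 was left out, Cpt2 without KO 1, KO 2 or CON 2, and Etfb without KO 2, KO 3, CON 2 or CON 3. Voom on recovered reads did not call Acads (adjusted p = 0.0695), and with total reads as library size Cpt2 and Etfb had differences of -0.02 and -0.14 and were not called. In all, 15 of the 83 tested genes of these lists were called (18.1%), 11 higher and 4 lower, beside 11.3% of all genes tested. Among the 11, Ch25h and Elovl7 passed the filter on low values through the KO group alone. Voom on recovered reads called 6 higher and 4 lower. Among markers of other cells, 2 of 5 tested retinal genes rose, with a sum over the list of 7489.9 to 9319.8 normalised reads in KO lenses and 2507.5 to 3565.7 in CON lenses. Of 5 tested pigment cell genes 1 rose, with sums of 11206 to 17857 in KO lenses and 8110.1 to 10160.3 in CON lenses, and 1 of 2 tested mesenchymal genes fell. None of 7 tested genes of vessels was called. None of 3 tested red cell genes was called either, though each had every KO library below every CON library and an unadjusted p under 0.05, with sums of 1386 to 2067 in KO lenses and 2355 to 3559 in CON lenses. The part of these cells in the values above was not tested.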

How the data were processed

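RNA from 3 KO and 3 CON lens samples was sequenced. The submitters' processing notes list Trimmomatic, HISAT2 2.1.0, the mm9 genome build, featureCounts 1.6.4 and, among the authors' tools, DESeq2 (version 2.11.0.6). The deposited table holds log2 values that the authors had variance-stabilised, and 6.504, the lowest, stands for no reads. Inverting it gave reads within 0.1 of a whole number for every value. Normalised reads divide these by the size factors, 1.66 to 1.89 in KO and 0.318 to 0.947 in CON. Intervals cover the spread between libraries, and reads without molecular identifiers are not molecules.

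KO was compared with CON by limma 3.58.1 in R 4.3.3 (eBayes with a mean-variance trend, no covariate) for the 11468 genes whose mean lay 1 unit or more above the lowest value, with Benjamini-Hochberg adjustment over all of them. The test was checked on simulated data. All 28 members were named, and of the other lists the called genes, up to 4 per direction. The members and lists were chosen with earlier results of these data known. Symbols, matched for 25275 identifiers, and promoters came from RefSeq, and transcript lengths and shared sequence from the GENCODE M21 mouse annotation. Neither is the build of the files, so they give no coordinates of the reads. Alternatives were other filters, scalings, pseudocounts and fits, the replicate number as a block and each library left out.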

Additional observations from a re-analysis of the deposited data

How the results depend on the processing

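Called genes numbered 1297 (793 higher, 504 lower) and sterol enzymes 2. With a filter of 3 units 802 genes were called, with library weights 2152, with voom on recovered reads scaled by non-crystallin reads 863, and by total reads 3399 (3314 higher, 85 lower, median of all genes 0.86). Equal library medians gave 643 higher and 717 lower, and voom with size factors 421 and 472. Called sterol enzymes numbered 1 with equal medians (Msmo1) and without the variance trend (Msmo1), 7 with total reads, and 4 each with library weights and with the length trend removed (Fdps and Fdft1 lower). With total reads 1 regulator was called (Stard4). In the fatty acid branch 0 genes were called, in place of 1, without a filter, with a filter of 3 units (Scd1 untested), quantile normalisation, voom with either scaling other than total reads, and log2 of normalised reads plus 1 or 5. Library weights gave 2 (Acly, Scd1). Leaving out a library gave 533 to 1943 called genes, 0 to 4 sterol enzymes and 0 to 2 fatty acid genes. The replicate numbers share only a number: residuals of equal numbers correlated at -0.364, -0.128 and -0.14, and the replicate block called 914 genes and 0 sterol enzymes. Signs turned with total reads for Mvk (0.48), Pmvk (0.50), Mvd (0.76), Fdps (0.19), Fdft1 (0.13), Tm7sf2 (0.23), Nsdhl (0.38), Sc5d (0.80), Srebf2 (0.65), Fasn (0.21) and Elovl6 (0.14). They turned with non-crystallin reads for Mvd (0.13), Sc5d (0.21) and Acaca (-0.01), and with equal medians for Lss (-0.03), Cyp51 (-0.01), Hsd17b7 (-0.02), Dhcr7 (-0.03), Srebf1 (-0.04), Acaca (-0.10) and Scd2 (-0.08). Quantile normalisation turned Lss (-0.01), Hsd17b7 (-0.03), Sc5d (0.05), Srebf1 (-0.08) and Acaca (-0.22), and voom with size factors Lss (-0.02), Hsd17b7 (-0.14), Sc5d (0.01), Dhcr7 (-0.01) and Acaca (-0.27). Library weights turned Srebf2 (0.22), and the length trend Lss (-0.05), Cyp51 (-0.03), Hsd17b7 (-0.04), Dhcr7 (-0.02), Srebf1 (-0.06), Acaca (-0.15) and Scd2 (-0.10). With a library left out, differences ran from -0.12 to 0.01 for Mvd, -0.12 to 0.44 for Lss, -0.03 to 0.23 for Cyp51, -0.54 to 0.52 for Hsd17b7, -0.26 to 0.28 for Sc5d, -0.17 to 0.30 for Dhcr7, -0.24 to 0.27 for Srebf2, -0.49 to 0.69 for Srebf1, -0.01 to 0.52 for Insig1, -0.32 to 0.50 for Acaca and -0.20 to 0.53 for Scd2. None of these members was called in the reported fit, and the cause of the turns was not tested. Depth limits Scd1, Acaca and Hsd17b7, which had 2, 6 and 22 reads in CON 2.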
